A study of Mus musculus with 91 samples.

Results

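Small RNA was sequenced by CAS-seq in 3 libraries of semi-cloned (SC) embryos at E7.5 and 3 at E6.5, and the stages were compared. These 6 were chosen by their titles and stage labels from the 88 libraries of the main table, out of 91 in the series. An SC embryo is made by injecting an androgenetic haploid embryonic stem cell (AG-haESC), which carries a sperm-derived genome, into an oocyte in place of a sperm. The cells used for both stages were DKO-AG-haESCs, in which the *H19*-DMR and the *IG*-DMR were deleted, so that both groups carry the deletions on the paternal genome, and DKO here does not mean loss of DNA methyltransferases. The strain given for both is C57BL/6 male X F1 female. The E7.5 libraries are titled as controls and stood beside E7.5 SC embryos with Mir-6KO and Dnmt mutations, and the sources used here do not say whether they had received a mock or editor injection. The labels name both groups as semi-cloned embryo, the study describes the E6.5 tissue as epiblast, and no tissue within the embryo is given for E7.5, so that stage and dissected tissue cannot be told apart. The sources used here do not say how many embryos or cell clones stand behind a library, and the p-values then measure the spread between these libraries, which may be technical. Control Epi, the epiblast of control embryos that were not semi-cloned, had 4 libraries at E6.5 and 3 at E7.5 and served as the reference for the same stage interval. Per the paper's methods, zygotes came from superovulated F1 females mated to males of C57BL/6J background, and embryos were recovered from recipient females.

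A mature miRNA is a short RNA that guides Argonaute proteins to partly complementary mRNAs, and the bases of its 5′ end called the seed largely decide which mRNAs are bound. Mouse pluripotent cells are known for a few large clusters of related miRNAs, chief among them *miR-290-295*, typical of the naive state and the early embryo, and *miR-302*, which also encodes *miR-367* and is typical of the primed epiblast. Between E6.5 and E7.5 the epiblast gastrulates, leaving pluripotency for the germ layers.

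The sequences that carry the results are given first, from RefSeq (GRCm38.p6), with the seed (bases 2 to 8) in capitals. The first set is shown because it joins both pluripotency clusters: 3 members of *miR-290-295* on chromosome 7 and 2 of *miR-302* on chromosome 3 share 1 seed.
miR-291a-3p: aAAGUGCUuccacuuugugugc
miR-294-3p: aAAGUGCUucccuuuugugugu
miR-295-3p: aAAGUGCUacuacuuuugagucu
miR-302b-3p: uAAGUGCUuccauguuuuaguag
miR-302d-3p: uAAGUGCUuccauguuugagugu
The second set shares the seed of *miR-92a-3p* and holds the most abundant miRNA that rose. The last of these, *miR-367-3p*, is a member of the *miR-302* cluster.
miR-92a-3p: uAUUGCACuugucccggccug
miR-92b-3p: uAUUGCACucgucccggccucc
miR-25-3p: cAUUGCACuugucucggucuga
miR-363-3p: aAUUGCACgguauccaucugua
miR-367-3p: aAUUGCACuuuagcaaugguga
The third set, from the same family of clusters as *miR-92a-3p* but with another seed, is shown because its 3 miRNAs fell.
miR-17-5p: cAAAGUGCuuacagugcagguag
miR-20b-5p: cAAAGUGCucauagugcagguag
miR-106b-5p: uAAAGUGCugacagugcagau
The last set gives single miRNAs with large changes, of which the first 4 rose and the last fell.
miR-483-5p: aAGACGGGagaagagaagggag
miR-877-5p: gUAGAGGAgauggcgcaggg
miR-351-5p: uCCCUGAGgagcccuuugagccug
let-7e-5p: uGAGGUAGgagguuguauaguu
miR-369-3p: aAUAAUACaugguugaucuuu

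The E7.5 libraries were deeper and yet listed fewer miRNAs. They held 13306003 to 26970637 counts against 2150520 to 2425038 at E6.5, and 565 to 688 miRNAs against 886 to 907. After thinning to 2150520 counts each, 548 to 671 miRNAs were listed at E7.5 and 886 to 902 at E6.5. Counts of 1 to 3 made up 0.998% to 3.54% of the miRNAs listed in an E7.5 library and 15.6% to 17.4% at E6.5. Of all miRNAs, 95 were listed in all 3 E6.5 libraries and in no E7.5 library, with a median of 2.58 CPM (counts scaled to a common library total) at E6.5, and 0 showed the reverse. None of the 274 miRNAs above 100 CPM at E6.5 was missing from all E7.5 libraries. Replicates were also less alike at E7.5: the median dispersion (squared relative spread beyond counting error) of miRNAs over 100 CPM was 0.109 at E7.5 and 0.00982 at E6.5. A value of 0 at E7.5 is therefore given below as listed at 0, without a fold.

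Of 721 miRNAs tested with edgeR, 74 (10.3%) were higher and 117 (16.2%) lower at E7.5, at an adjusted p under 0.05 and a log2 fold change beyond 0.5. Of the 117 lower, 49 had 0 counts in all 3 E7.5 libraries, 40 of them under 10 normalized CPM at E6.5, and 68 were still counted at E7.5. Normalized CPM is CPM scaled with the TMM factors. Among the 291 miRNAs that reached 100 normalized CPM at either stage, 58 rose and 66 fell. With all libraries thinned to equal depth, 76 were higher and 88 lower of 631 tested, and 151 of the 159 earlier calls that were still tested were kept. In a fit that let the stages differ in spread (limma), 81 were higher and 146 lower. The number of calls leaned on the E6.5 libraries: without replicate 1, 2 or 3 of E6.5, 69, 74 and 75 miRNAs were called in all. The edgeR test uses 1 spread for both stages. No miRNA called here changed sign under any of these settings. The median log2 fold change over the tested miRNAs was -0.15.

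The *miR-290-295* cluster fell at E7.5. This cluster, on chromosome 7, gives some of the most abundant miRNAs of naive pluripotent cells, which promote the rapid cell cycle of those cells. Of its 18 entries, all tested, 14 were lower and 0 higher, against 16.2% and 10.3% over all miRNAs, with a median log2 fold change of -1.49. Several entries are opposite strands of overlapping genes that count the same reads, and over distinct reads 11 of 14 were lower. Leaving out 1 library gave 12 to 16 lower entries and 0 higher, and with all 5 SC groups in 1 model 7 were lower. The cluster took 13.5, 13.4 and 12.3% of counts at E6.5 and 5.12, 4.5 and 4.99% at E7.5. The groups do not overlap, and the exact two-sided permutation test gave p = 0.1, the smallest that 3 libraries against 3 allow (adjusted over 5 shares, p = 0.25).

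The most abundant member, *miR-295-3p* (chr7:3220815-3220837, GRCm38, between annotated genes), had 52497, 48808 and 48817 normalized CPM at E6.5 and 16486, 16985 and 18070.1 at E7.5. Every E7.5 library was below every E6.5 library (log2 fold change -1.54 ± 0.08 (SE), adjusted p = 1.30e-04). *miR-294-3p* (chr7:3220691-3220712), which shares its seed, had 715, 631 and 627 normalized CPM at E6.5 and 201, 111 and 228 at E7.5 (log2 fold change -1.87 ± 0.27 (SE), adjusted p = 0.00487). *miR-291a-3p* had 267, 215 and 199 normalized CPM at E6.5 and 98.1, 27 and 43.1 at E7.5 (log2 fold change -2.02 ± 0.49 (SE), adjusted p = 0.0244), and its call was lost whichever E6.5 library was left out. The reads listed as both *miR-292a-3p* and *miR-292b-5p* gave 1015, 1083 and 915 normalized CPM at E6.5 and 256, 206 and 247 at E7.5 (log2 fold change -2.09 ± 0.13 (SE), adjusted p = 1.89e-04). The fall was smaller for the abundant *miR-293-3p*, with a log2 fold change of -0.84 (adjusted p = 0.0114, lost without E6.5 replicate 1 or 2), and for *miR-291a-5p*, with -0.85 (adjusted p = 0.00218). One member went against the rest: *miR-291b-5p* (chr7:3219494-3219515) had 1923, 2081 and 1823 normalized CPM at E6.5 and 1888, 2456 and 3879 at E7.5, with overlapping groups (log2 fold change 0.50 ± 0.26 (SE), adjusted p = 0.232).

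The share of the *miR-302* cluster overlapped between the stages. This cluster lies on chromosome 3 and is the main miRNA cluster of the primed epiblast. It took 20.3, 21.7 and 19.8% of counts at E6.5 and 19.8, 23.6 and 24.6% at E7.5, and the groups overlap (exact permutation p = 0.4, adjusted over 5 shares p = 0.5). Of its 10 entries, 1 was higher and 1 lower, against 10.3% and 16.2% over all miRNAs, with a median log2 fold change of -0.01. *miR-302b-3p* (chr3:127545275-127545297, between annotated genes) was the most abundant miRNA in all 6 libraries, with 163798, 175535 and 159506 normalized CPM at E6.5 and 181430.2, 220476 and 248897 at E7.5 (log2 fold change 0.38 ± 0.13 (SE), adjusted p = 0.0795). All 3 E7.5 libraries stood above the E6.5 libraries, but the change did not pass. The higher entry was *miR-302a-5p*, with 12766, 12684 and 12817 normalized CPM at E6.5 and 15006, 17234 and 22278 at E7.5 (log2 fold change 0.51 ± 0.15 (SE), adjusted p = 0.0442), and that call was lost in 16 of 18 alternatives. The lower one, *miR-367-5p*, had 12.1, 3.94 and 6.86 normalized CPM at E6.5 and 0, 0 and 0 at E7.5, a call lost whichever E6.5 library was left out.

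**Figure D1:**
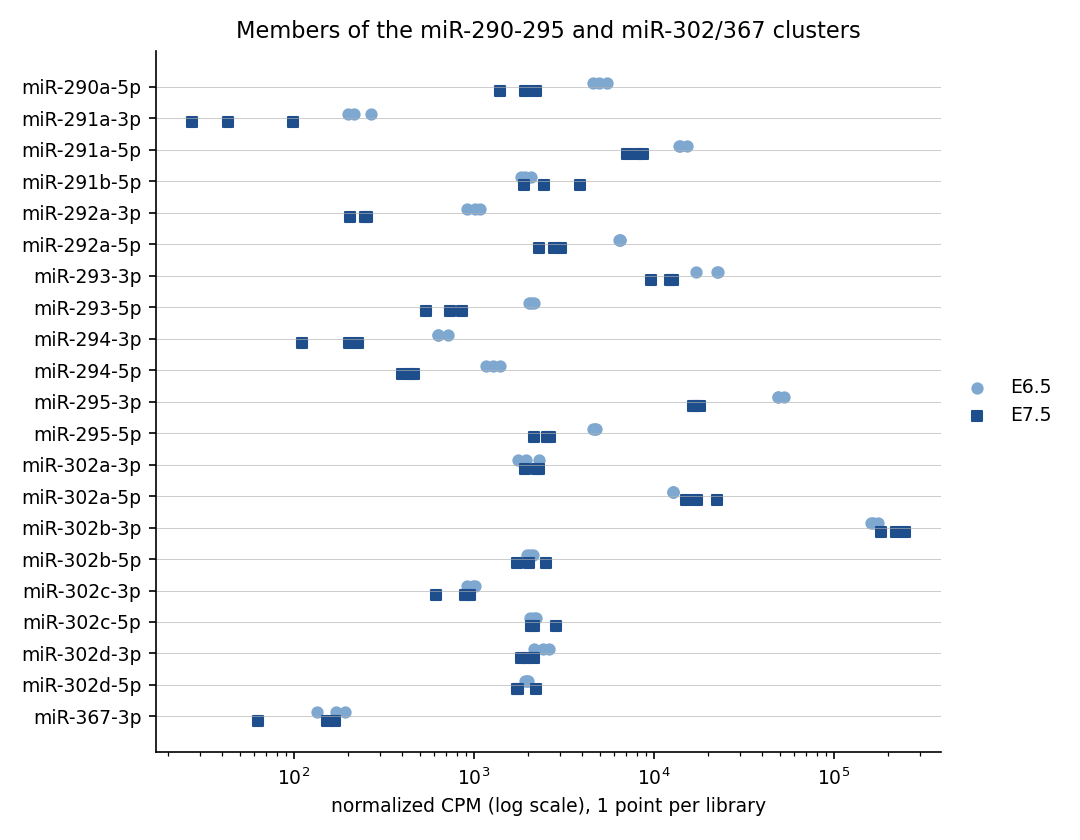
Normalized CPM of 21 miRNAs of the *miR-290-295* and *miR-302* clusters on a log axis, 1 point per library, circles for E6.5 and squares for E7.5 (3 libraries each). The squares lie left of the circles for the *miR-290-295* members other than *miR-291b-5p*, and near them for *miR-302*.

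The 5 miRNAs of the first sequence set were then summed, which was chosen after their values were seen. They are those with this seed that matched RefSeq, and *miR-302a-3p* was not matched and is not in the sum. Of all counts, with reads listed in several entries counted once, those of *miR-290-295* took 5.85 ± 0.244% (SD, n = 3) at E6.5 and 1.64 ± 0.0245% at E7.5. The 2 of *miR-302* took 19.4 ± 1.05% and 20.6 ± 2.25%. The sum of the 5 went from 25.2 ± 1.03% to 22.2 ± 2.24%, and its lowest E6.5 library, at 24.2%, was above its highest E7.5 library, at 23.7%.

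Members of *miR-17-92* and its paralog clusters moved both ways. These clusters, on chromosomes 14, X and 5, are known as promoters of proliferation and survival. Their share of counts was 7.16, 7.33 and 7.23% at E6.5 and 11.2, 11.3 and 11.9% at E7.5, without overlap (exact permutation p = 0.1, adjusted p = 0.25). The mean share differed by 4.25 points, and most of this was *miR-92a-3p*, which alone went from a mean of 4.48% to 8.43%. Of 25 entries tested, 3 were higher and 6 lower, against 10.3% and 16.2% over all miRNAs. The median log2 fold change was -0.40, and 0.01 over the 19 entries with a mean of at least 100 CPM. *miR-92a-3p*, made from 2 genes (chr14:115044476-115044496 in an exon of the noncoding *Mir17hg*, and chrX:52741854-52741874), had 40918, 42162 and 41251 normalized CPM at E6.5 and 88312, 88899.8 and 96704 at E7.5 (log2 fold change 1.14 ± 0.08 (SE), adjusted p = 2.80e-04). The passenger strands rose too: *miR-92a-1-5p* by 1.65 on the log2 scale (adjusted p = 8.17e-04) and *miR-92a-2-5p* by 1.92 (adjusted p = 0.0114, lost whichever E6.5 library was left out).

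Of 6 members of these clusters with the seed of *miR-17-5p*, 3 fell and 3 did not pass. *miR-17-5p* (chr14:115043684-115043706) had 749, 799 and 728 normalized CPM at E6.5 and 423, 438 and 448 at E7.5 (log2 fold change -0.80 ± 0.10 (SE), adjusted p = 0.00227). *miR-20b-5p*, of the X-linked paralog, had 839.9, 713 and 757 normalized CPM at E6.5 and 199, 206 and 360.2 at E7.5 (log2 fold change -1.59 ± 0.25 (SE), adjusted p = 0.00627). *miR-106b-5p* (chr5:138165787-138165807, in an intron of *Mcm7*) had 177, 193 and 148 normalized CPM at E6.5 and 44.4, 59.8 and 62.4 at E7.5 (log2 fold change -1.64 ± 0.24 (SE), adjusted p = 0.00487). *miR-20a-5p*, *miR-93-5p* and *miR-106a-5p*, which did not pass, gave log2 fold changes of 0.24, -0.27 and -0.67 (adjusted p = 0.0737 for the last). The other lower entries were *miR-19b-3p*, at -1.39 (adjusted p = 0.016), and *miR-19b-1-5p* and *miR-19b-2-5p*, both listed at 0 at E7.5. These 3 calls were lost whichever E6.5 library was left out. Without any 1 of the E6.5 libraries, 2 entries of these clusters were higher and 3 lower. Without E7.5 replicate 3, 3 were higher and 10 lower, and with all 5 SC groups in 1 model 3 and 1.

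*miR-92b-3p*, a separate gene on chromosome 3 (chr3:89227126-89227147) with the seed of *miR-92a-3p*, had 1492, 1625 and 1616 normalized CPM at E6.5 and 8544, 11088 and 11146 at E7.5 (log2 fold change 2.70 ± 0.13 (SE), adjusted p = 1.30e-04). Summed over the 6 miRNAs with that seed that matched RefSeq, the share of counts was 6.99, 7.2 and 7.06% at E6.5 and 11.7, 12.1 and 12.3% at E7.5, without overlap. *miR-25-3p* and *miR-363-3p*, in the same group, gave 0.24 (adjusted p = 0.0422, below the fold threshold) and 0.57 (adjusted p = 0.0608).

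**Figure D2:**
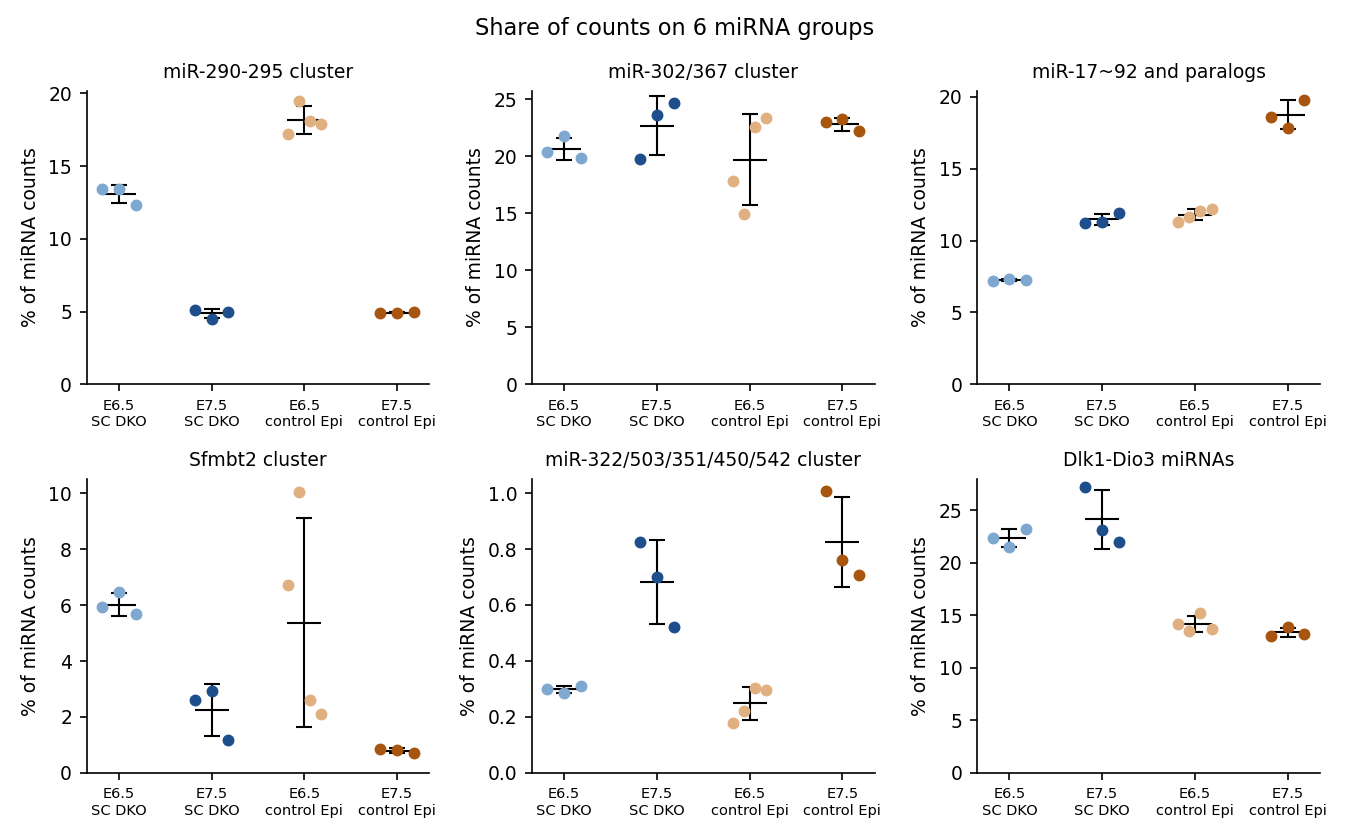
Percent of miRNA counts on 6 groups of miRNAs, 1 point per library, in DKO SC embryos (blue, 3 and 3 libraries) and control Epi (brown, 4 at E6.5 and 3 at E7.5), with mean and SD as bars. In SC embryos the points of the 2 stages are apart for *miR-290-295*, *miR-17-92*, *Sfmbt2* and *miR-322*, and overlap for *miR-302* and *Dlk1-Dio3*.

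The *Sfmbt2* cluster fell as well. It is a large rodent-specific array of related miRNAs in an intron of the imprinted gene *Sfmbt2*, known for its expression in trophoblast and placenta. Of 68 entries tested, 28 were lower and 1 higher, against 16.2% and 10.3% over all miRNAs, with a median log2 fold change of -1.75. Over distinct reads 19 were lower and 1 higher of 56. Its share was 5.92, 6.48 and 5.67% at E6.5 and 2.59, 2.93 and 1.17% at E7.5. The reads shared by 5 entries, among them *miR-466a-3p* and *miR-466e-3p*, gave 5484, 6115 and 5240.3 normalized CPM at E6.5 and 1959, 2015 and 1032 at E7.5 (log2 fold change -1.75 ± 0.26 (SE), adjusted p = 0.00487). Those listed as *miR-467a-3p* and *miR-467d-3p* gave 437, 428 and 371 normalized CPM at E6.5 and 77.7, 109 and 51.8 at E7.5 (log2 fold change -2.37 ± 0.29 (SE), adjusted p = 0.00227). The exception, *miR-669c-5p*, had 1240.2, 1387 and 1523 normalized CPM at E6.5 and 4377, 8279 and 2494 at E7.5 (log2 fold change 1.87 ± 0.42 (SE), adjusted p = 0.0173), a call lost whichever E6.5 library was left out. Of the lower entries, 8 are listed at 0 at E7.5. Without E6.5 replicate 1, 2 or 3, 9, 9 and 12 entries of the cluster were lower, and with all 5 SC groups in 1 model 4 were.

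Because many *Sfmbt2* miRNAs are high in extraembryonic ectoderm (Exe), the control tissues were set beside the SC embryos. In control embryos 49 miRNAs were higher in Exe than in Epi at both stages (Exe-high), of which 25 belong to the *Sfmbt2* cluster and 0 to *miR-290-295*. The 25 took 5.4% to 6.17% of counts in SC embryos at E6.5 and 1.13% to 2.78% at E7.5, against 12.6% to 23.8% and 13.9% to 17.5% in control Exe and 1.97% to 9.57% and 0.673% to 0.837% in control Epi. Of these 25, 16 were lower and 1 higher at E7.5 in SC embryos, against 16.2% and 10.3% over all miRNAs. Among the other 24 Exe-high miRNAs, 9 were higher and 2 lower, with a median log2 fold change of 0.89. These 24 took 1.05% to 1.13% at E6.5 and 1.23% to 1.99% at E7.5, against 2.43% to 4.24% and 4.27% to 5.71% in control Exe. In control Epi they took 0.522% to 1.03% at E6.5 and 0.945% to 1.33% at E7.5. The 27 miRNAs higher in control Epi (Epi-high) took 24.1% to 25.8% at E6.5 and 24.5% to 31.3% at E7.5 in SC embryos, against 2.86% to 4.53% and 4.81% to 6.23% in control Exe. Of the 27, 5 were higher and 3 lower, not far from the 10.3% and 16.2% over all miRNAs. Of all 49 Exe-high entries, 10 were higher and 18 lower. The lower ones numbered 11 of 37 with 1 entry per set of same reads, 7, 7 and 10 without E6.5 replicate 1, 2 or 3, and 0 with all 5 SC groups in 1 model. In bulk tissue, fewer cells of a type and less RNA per cell cannot be told apart.

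The X-linked cluster of *miR-322*, *miR-503*, *miR-351*, *miR-450* and *miR-542* rose. Its *miR-322* and *miR-503* are known to slow the cell cycle and to accompany mesoderm differentiation. Of 12 entries tested, 6 were higher and 0 lower, against 10.3% and 16.2% over all miRNAs, and 3 of the 12 had a log2 fold change below 0. Without any 1 of the E6.5 libraries 3 were higher. *miR-351-5p* (chrX:53053315-53053338) had 599, 601 and 759 normalized CPM at E6.5 and 4583, 2976 and 2772 at E7.5 (log2 fold change 2.40 ± 0.23 (SE), adjusted p = 8.17e-04). *miR-322-3p* had 222, 188 and 200.1 normalized CPM at E6.5 and 1515, 1734 and 577 at E7.5 (log2 fold change 2.65 ± 0.41 (SE), adjusted p = 0.00564). E7.5 replicate 3 was the lowest of its group for both, and still above all E6.5 libraries. *miR-351-3p* rose by 2.59 on the log2 scale. *miR-503-5p* rose by 1.69, *miR-503-3p* by 1.40 and *miR-450b-5p* by 0.75, and these 3 calls were lost whichever E6.5 library was left out. The guide strand *miR-322-5p* was far lower than *miR-322-3p*, with 10.3, 14.2 and 11.1 normalized CPM at E6.5 and 45.5, 27.3 and 11.2 at E7.5 (adjusted p = 0.31). Of the called entries, *miR-322-3p*, *miR-351-3p* and *miR-351-5p* are Exe-high miRNAs. Their log2 differences of control Exe over Epi were 2.56, 3.02 and 2.63 at E6.5 and 2.14, 1.85 and 1.62 at E7.5. They also rose in control Exe between the stages, and in control Epi 5 of 11 entries of the cluster were higher. The tissue of the E7.5 SC libraries is not given, and whether Exe tissue adds to this rise was not tested.

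The largest rise of all was at *Igf2*. *miR-483-5p*, in an intron of this imprinted growth factor gene (chr7:142654968-142654989), had 31, 36.3 and 26.7 normalized CPM at E6.5 and 1472, 1587 and 763 at E7.5 (log2 fold change 5.35 ± 0.35 (SE), adjusted p = 1.89e-04), and stayed called in all 18 alternatives. The other arm, *miR-483-3p*, had 56, 41.8 and 41.9 normalized CPM at E6.5 and 167, 269 and 249 at E7.5 (log2 fold change 2.29 ± 0.27 (SE), adjusted p = 0.00218), a call lost when all 5 SC groups were fitted together. *miR-675-3p*, made from *H19*, had 8.61, 11 and 2.67 normalized CPM at E6.5 and 6.19, 0 and 0 at E7.5, too few counts to compare. In control Epi *miR-483-5p* ranged from 32.7 to 328 CPM at E6.5 and from 555 to 718 at E7.5, and in control Exe it was at 1072 CPM or more at both stages. Of 6 entries at the imprinted *Gnas* and *Mest* loci, 3 rose, against 10.3% over all miRNAs. These were *miR-296-3p* by 0.77, *miR-335-3p* by 0.81 and *miR-298-5p* by 0.61 on the log2 scale, the last lost whichever E6.5 library was left out.

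**Figure D3:**
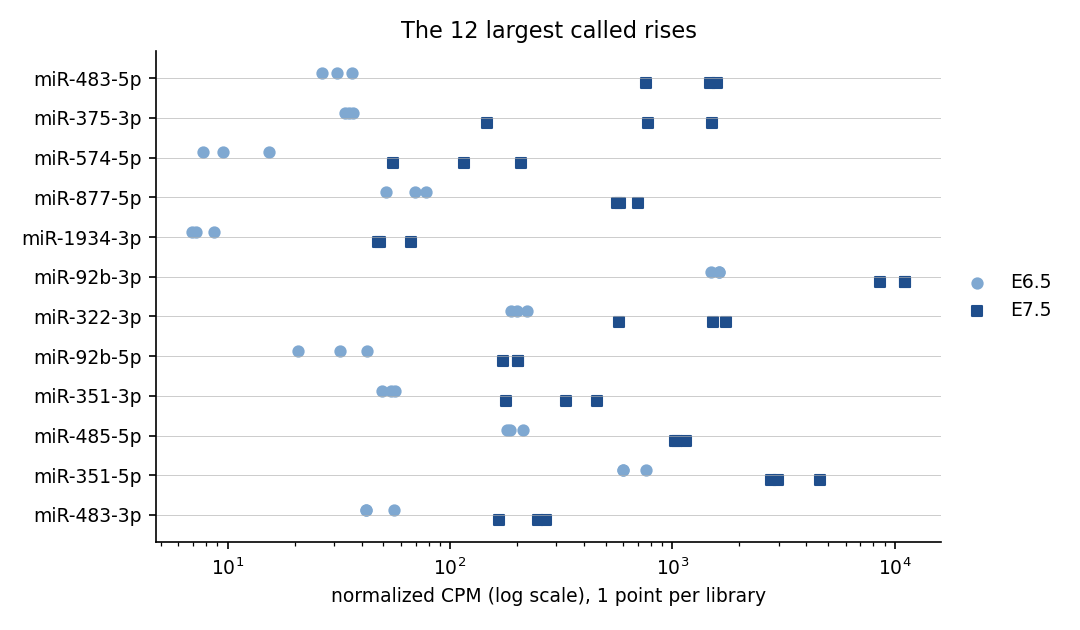
Normalized CPM on a log axis of the 12 miRNAs with the largest called rises among those without overlap and with 50 normalized CPM or more, 1 point per library, circles for E6.5 and squares for E7.5. No square overlaps the circles of its row, and *miR-483-5p* shows the widest gap.

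The miRNAs of the imprinted *Dlk1-Dio3* locus took an overlapping share of counts at both stages, while single members moved in both directions. They lie between *Dlk1* and *Dio3* on chromosome 12, are made from the maternal chromosome, and are held off on the paternal one by *IG*-DMR methylation. The *IG*-DMR itself is deleted in both groups here. The paper treats this deletion as a partial mimic of the methylated state. It reports lower expression of these miRNAs in E6.5 DKO SC embryos than in wild-type SC embryos. Their share was 22.3, 21.5 and 23.2% at E6.5 and 27.2, 23.1 and 22% at E7.5, with overlap (exact permutation p = 0.5, adjusted p = 0.5). Of 100 tested of 113 in the table, 12 were higher and 16 lower, shares near the 10.3% and 16.2% over all miRNAs, and the median log2 fold change was -0.23.

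The largest rise in the locus was that of *miR-485-5p*, with 186, 179 and 212 normalized CPM at E6.5 and 1050.5, 1149 and 1025 at E7.5 (log2 fold change 2.48 ± 0.12 (SE), adjusted p = 1.30e-04). *miR-323-5p* followed, with 191, 207 and 189 normalized CPM at E6.5 and 715, 567 and 622 at E7.5 (log2 fold change 1.70 ± 0.13 (SE), adjusted p = 3.91e-04). Of the abundant members, *miR-409-3p* (chr12:109743204-109743225, in an intron of the noncoding *Mirg*) rose by 0.89, *miR-370-3p*, in an intron of the noncoding *Rian*, by 0.66 and *miR-434-3p* by 0.63 on the log2 scale. *miR-127-3p*, the most abundant, had 45013, 41353 and 48046 normalized CPM at E6.5 and 70308, 58112 and 60331 at E7.5 (log2 fold change 0.49 ± 0.11 (SE), adjusted p = 0.0175), just under the fold threshold. Among members that fell, *miR-369-3p* (chr12:109743466-109743486, also within *Mirg*) had 586, 665 and 604 normalized CPM at E6.5 and 138, 148 and 150.4 at E7.5 (log2 fold change -2.09 ± 0.12 (SE), adjusted p = 1.45e-04). *miR-154-3p* gave -1.55 (lost without E6.5 replicate 1 or 2), *miR-376b-3p* -1.06 and *miR-380-3p* -0.98. *miR-665-5p* and *miR-544-5p* are listed at 0 at E7.5, and both calls were lost whichever E6.5 library was left out. Without E6.5 replicate 1, 2 or 3, 8, 8 and 7 members were higher and 4, 6 and 7 lower.

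The *let-7* family, which marks the exit from pluripotency in many tissues, was low at both stages, at 0.13, 0.138 and 0.156% of counts at E6.5 and 0.162, 0.149 and 0.139% at E7.5 (exact permutation p = 0.4, adjusted p = 0.5). Of 12 entries tested, 3 were higher and 1 lower, against 10.3% and 16.2% over all miRNAs. *let-7e-5p* had 146, 166 and 187 normalized CPM at E6.5 and 659.9, 622 and 501 at E7.5 (log2 fold change 1.84 ± 0.16 (SE), adjusted p = 7.24e-04). *let-7c-5p* rose by 1.42 and *let-7b-5p* by 3.00 on the log2 scale, the latter from 1.91 to 4.34 normalized CPM to 18.8 to 35.2, and both calls were lost whichever E6.5 library was left out. The lower entry, *let-7e-3p*, is listed at 0 at E7.5, and its call too was lost whichever E6.5 library was left out. *let-7f-5p* and *let-7g-5p* gave -0.75 and -1.40 and did not pass.

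Lists of lineage miRNAs were small, and their counts stand beside 10.3% higher and 16.2% lower over all miRNAs. Of 9 neural miRNAs tested, 0 were called by edgeR, 0 had an unadjusted p under 0.05 and 0 were called by DESeq2 or limma. Of 6 mesenchymal ones, 0 were called by edgeR, 0 at an unadjusted p and by DESeq2, and 1 by limma. Of 8 of the *miR-99*, *miR-100* and *miR-125* families, 0 were called by any of the 3 tools and 1 had an unadjusted p under 0.05. Of 13 blood and endothelial entries, 1 was lower, *miR-142a-5p*, with 164, 185 and 215 normalized CPM at E6.5 and 46.6, 62.2 and 47 at E7.5 (log2 fold change -1.86 ± 0.23 (SE), adjusted p = 0.00249). Of 5 *Hox*-cluster miRNAs 1 was higher, *miR-10b-3p*, with 1.29, 0.789 and 0.762 normalized CPM at E6.5 and 7.2, 12.9 and 21.7 at E7.5, a call lost whichever E6.5 library was left out. Of 5 endoderm miRNAs 1 was higher and 2 lower, and of 5 cardiac and muscle entries 2 were lower, both listed at 0 at E7.5. In the *miR-200* family of epithelial miRNAs, 1 of 9 was higher and 3 lower. *miR-200b-5p* rose by 0.82 on the log2 scale (lost without E6.5 replicate 1 or 2), and *miR-429-3p* gave -0.98. *miR-141-5p* and *miR-200c-5p* are listed at 0 at E7.5. The calls of *miR-429-3p* and *miR-200c-5p* were lost whichever E6.5 library was left out. *miR-141-5p* had 64.6, 67.1 and 85 normalized CPM at E6.5 and 0, 0 and 0 at E7.5, and the other arm of its hairpin, *miR-141-3p*, had log2 fold change -0.41 and adjusted p = 0.233.

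The higher one of the endoderm list, *miR-375-3p*, known from endoderm and neuroendocrine cells, had 35.3, 33.5 and 36.6 normalized CPM at E6.5 and 774, 1504 and 146 at E7.5 (log2 fold change 4.52 ± 0.83 (SE), adjusted p = 0.0112). Its E7.5 libraries differed widely, and the call was lost whichever E6.5 library was left out. Outside these groups, *miR-877-5p*, cut from an intron of *Abcf1* by splicing, had 77.9, 69.4 and 51.4 normalized CPM at E6.5 and 560.2, 581 and 703 at E7.5 (log2 fold change 3.21 ± 0.21 (SE), adjusted p = 1.89e-04). The abundant *miR-423-5p* had 3313, 3599.8 and 3551 normalized CPM at E6.5 and 14603, 13733 and 17275 at E7.5 (log2 fold change 2.12 ± 0.11 (SE), adjusted p = 1.30e-04). *miR-574-5p* rose by 3.54, lost without E6.5 replicate 3, and *miR-1934-3p* by 2.83, lost without E6.5 replicate 1 or 3. Among the falls was *miR-5099*, with 5169.7, 3746 and 5190.0 normalized CPM at E6.5 and 1385, 1232 and 1387 at E7.5 (log2 fold change -1.82 ± 0.15 (SE), adjusted p = 4.93e-04), a call lost when all 5 SC groups were fitted together. Among abundant miRNAs, *miR-26a-5p* had 27377, 25248 and 28543 normalized CPM at E6.5 and 35191, 39032 and 40665 at E7.5 (log2 fold change 0.50 ± 0.09 (SE), adjusted p = 0.0114), at the fold threshold, and lost its call in 14 of 18 alternatives.

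**Figure D4:**
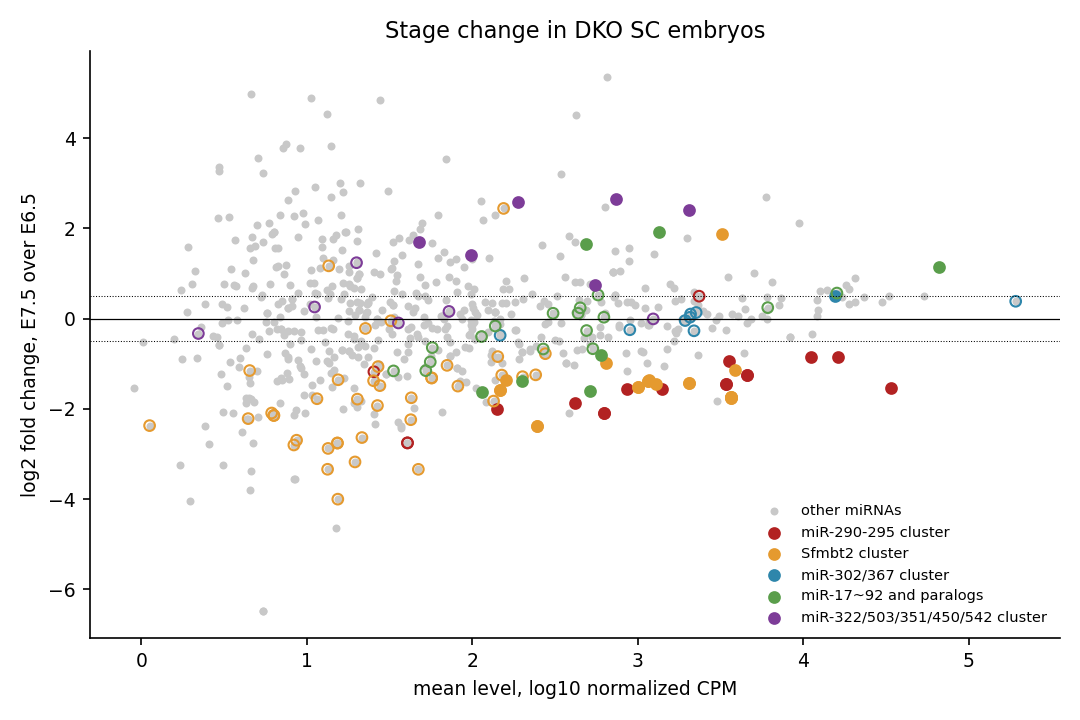
Log2 fold change of E7.5 over E6.5 in DKO SC embryos against the mean level (log10 normalized CPM), 1 point per miRNA counted at both stages, with 5 clusters in colour, filled where called, and dotted lines at the fold threshold of 0.5. The *miR-290-295* and *Sfmbt2* points lie mostly below 0, and the filled *miR-322* cluster points above it.

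The same interval in control Epi, which shares no library with the SC comparison, moved many of the same miRNAs. There 80 of 474 tested were higher (16.9%) and 83 lower (17.5%). Over the 472 tested in both, the log2 fold changes had a Pearson r of 0.54 and a Spearman rho of 0.62, a description across miRNAs, which are not independent. Control Epi libraries too were deeper at E7.5, with 1623256 to 2325698 counts against 281158 to 458837. They also listed few low counts there: counts of 1 to 3 made up 0.629% to 2.49% of the miRNAs listed, against 15.1% to 25.2% at E6.5. Whether this trait, shared by both kinds of E7.5 library, adds to the agreement was not tested. Of 138 called in SC embryos and tested in control Epi, 118 went the same way, and of 89 called in both, 84 did, 36 higher and 48 lower. The share going the same way over all 472 was not counted, so these counts have no base rate beside them. The *miR-290-295* cluster had 17 of 18 lower in control Epi (median -2.25), and its share there was 17.2% to 19.5% at E6.5 and 4.89% to 4.99% at E7.5. The *miR-322* cluster had 5 of 11 higher there, and the *Sfmbt2* cluster 28 of 38 lower.

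The stage change itself differed between the 2 kinds of embryo for 71 of 715 miRNAs, larger in SC embryos for 33 (4.62%) and smaller for 38 (5.31%), and 15 of the 71 had 0 counts in all libraries of a group. The differences below come from 1 model of all 13 libraries and so are near, not equal to, the gap between the separate fold changes. Of *miR-290-295*, 6 of 18 entries had a larger value in SC embryos, which is a lesser fall where an entry fell in both. For *miR-292a-5p* the log2 fold changes were -1.25 in SC embryos and -2.71 in control Epi (difference 1.40 ± 0.21 (SE), adjusted p = 0.00125). *miR-291b-5p* stood furthest apart, with 0.50 and -4.68 (difference 5.11 ± 0.53 (SE), adjusted p = 6.18e-05). *miR-483-5p* gave 5.35 and 1.98 (difference 3.32 ± 0.90 (SE), adjusted p = 0.0312), lost in 7 of the 13 fits without 1 library, and *let-7e-5p* 1.84 and -0.80 (difference 2.61 ± 0.51 (SE), adjusted p = 0.00819). Called in both but in opposite directions were 5 miRNAs, among them *miR-5099*, with -1.82 and 1.15 (difference -3.01 ± 0.31 (SE), adjusted p = 6.18e-05), and *miR-669c-5p*, with 1.87 and -2.55 (difference 4.36 ± 0.68 (SE), adjusted p = 0.00181). *miR-483-5p* and *miR-669c-5p* are Exe-high miRNAs, and the tissue of the E7.5 SC libraries is not given. Without E6.5 SC replicate 1, 2 or 3, the larger and smaller changes numbered 11 and 9, 13 and 12, and 15 and 13.

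**Figure D5:**
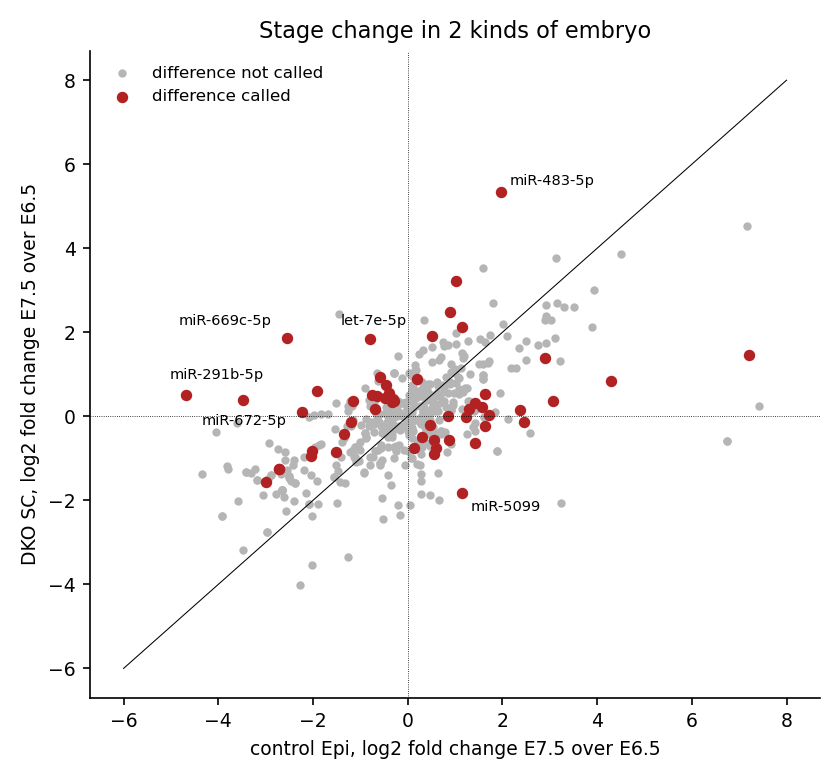
Log2 fold change of E7.5 over E6.5 in DKO SC embryos against that in control Epi for 467 miRNAs tested in both comparisons and with counts in all 4 groups. The line marks equal change, and the 54 of these miRNAs whose difference was called are in red. Points scatter along the line, and *miR-291b-5p*, *miR-669c-5p* and *miR-672-5p* lie far to its upper left.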

How the data were processed

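The values used are raw integer counts for each mature miRNA of miRBase 21 in each library, as the authors deposited them, without normalization. For these, per the labels and methods, fastp 0.20.1 removed adapters and Bowtie 1.2.1.1 mapped the reads, with GRCm38 as genome. Libraries were made from minute RNA inputs with PCR, and molecular identifiers are not described, so errors of single counts cover counting only. The 6 libraries were fitted alone with edgeR 4.0.16 (quasi-likelihood, TMM, filterByExpr with a count minimum of 10; R 4.3.3), with Benjamini-Hochberg adjustment over all miRNAs tested; SE came from the F statistic. Control Epi was fitted alike, and the difference of stage changes in 1 model of 13 libraries. Shares are percent of a library's counts. Entries whose counts agreed within 2% or 2 counts in every library were taken as the same reads. Exe-high and Epi-high miRNAs passed the test and a log2 difference of 1 at both stages. Positions and hosts are from RefSeq GRCm38.p6 and GENCODE; 1275 of 1504 names matched. Single miRNAs are named by a rule: the 12 largest rises and falls among calls without overlap and with 50 normalized CPM or more, the 5 most abundant per stage, the 5 largest differences from control Epi each way, and up to 5 members per list; the other list members were named after their values were seen. Members and lists were chosen with earlier results of these data known. The procedure was tested on simulated data with 3 models of spread: with 1 spread for all miRNAs, as first tried, it recovered no changed miRNA of the SC comparison, while with spread set by abundance it recovered nearly all abundant ones and few below 100 CPM. With each stage's own spread, unadjusted p-values were too small and adjusted ones gave no false call, so unadjusted calls are not relied on. A difference between the stages in how low counts are listed was not simulated, so this does not cover calls that rest on a 0 at E7.5. 2 other deposited tables, an earlier copy of the main one and one of other SC embryos, were not used here.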

Additional observations from a re-analysis of the deposited data

Results flagged for a closer look

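The stage change differed most between DKO SC embryos and control Epi, by the interaction term of edgeR, for 10 miRNAs. With counts in all 4 groups these were *miR-291b-5p*, by 5.11 on the log2 scale, *miR-669c-5p*, by 4.36, and *miR-672-5p*, by 3.82, each larger in SC embryos. *miR-669c-5p* and *miR-672-5p* are Exe-high miRNAs, and the tissue of the E7.5 SC libraries is not given. Counts of *miR-672-5p* were 526, 553 and 667 and 5801, 10398 and 1400 in SC embryos at E6.5 and E7.5, and 105, 131, 72 and 57 and 90, 46 and 10 in control Epi. The other 7 had a group at 0, and their fitted values depend on how a 0 is treated and are no folds. *miR-7688-5p* (fitted 10.42) and *miR-3078-5p* (fitted 10.07) are listed at 0 in control Epi at E7.5. *miR-141-5p* (fitted -11.08), *miR-7648-3p* (-10.68), *miR-505-3p* (-10.64), *miR-199b-5p* (-10.54) and *miR-665-5p* (-9.59) are listed at 0 in SC embryos at E7.5. *miR-141-5p* had 150, 170 and 223 counts in SC embryos at E6.5 and 193, 129 and 52 in control Epi at E7.5.

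Among the reference groups of 4 libraries, 1 library of control Exe at E7.5 stood apart with 10.2% of counts on *miR-17-92* and its paralogs, and 1 of control Exe at E6.5 with 0.614% on the *let-7* family. Chance sets apart about 1 group in 20.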

How the results depend on the processing

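The counts of calls in SC embryos (74 higher, 117 lower) moved by over 1.5 times in some settings. With all 5 SC groups in 1 model they were 23 and 18. Lower calls numbered 73 without a filter, 74 at a mean of at least 100 CPM (266 tested) and 60 with replicate number as a block. Leaving out 1 library gave 34 to 91 higher and 34 to 151 lower, with the low ends when an E6.5 library was left out. The differences from control Epi (33 larger, 38 smaller) numbered 80 and 98 at an unadjusted p, 62 and 63 with DESeq2, 20 smaller at equal depth, and 11 to 43 and 9 to 47 without 1 library. Same-numbered libraries did not deviate together (correlations from -0.06 to 0.03 in SC embryos), so the numbers do not pair them, and with replicate number as a block 50 were higher and 60 lower, with 20 larger and 16 smaller differences. In control Epi, leaving out 1 library gave 69 to 86 higher and 75 to 83 lower. Without *miR-302b-3p* in the total, the *miR-290-295* share differed by -9.87 points and the *miR-17-92* share by 5.53. The causes were not tested. No called value changed sign. List medians did for the *miR-17-92* clusters (-0.65 to 0.01), *let-7* (-0.33 to 0.52), *miR-302* (-0.17 to 0.10) and Epi-high miRNAs (-0.14 to 0.18). Of the values of single miRNAs and list medians under the alternatives, 3050 kept their side of the threshold or stayed within the spread, 366 fell below the threshold, 50 passed it and 13 moved. Fits at a mean of 100 CPM, with 1 entry per set of same reads and with a weight per group (limma voom) were added after seeing the data. RLE and upper-quartile scaling moved the median over all miRNAs in SC embryos by less than 0.1 from -0.15. Few low counts are listed at E7.5, which limits what a 0 there shows.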

Other observations

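Further families held single changes in SC embryos. In the *miR-30* family, 3 of 12 entries were higher and 1 lower, against 10.3% and 16.2% over all miRNAs. Of the higher ones, *miR-30e-3p* and *miR-30f* list the same reads, and their calls were lost in 12 of 18 and 11 of 17 alternatives. *miR-30a-3p* had 204, 184 and 179 normalized CPM at E6.5 and 451, 548 and 475 at E7.5 (log2 fold change 1.38 ± 0.14 (SE), adjusted p = 9.35e-04), while *miR-30b-5p* gave a log2 fold change of -0.76, lost whichever E6.5 library was left out. In the *miR-130* and *miR-301* family, 1 of 8 was higher and 2 lower: *miR-130b-5p* had 787, 1001 and 885 normalized CPM at E6.5 and 2984, 2827 and 3405 at E7.5 (log2 fold change 1.79 ± 0.13 (SE), adjusted p = 2.80e-04), and stayed called in all 18 alternatives. Of 7 entries of the *miR-181* family, 2 were higher, with *miR-181d-5p* at a log2 fold change of 0.93. Among 29 entries of the germline X-linked cluster, known from testis, 4 were higher and 5 lower, 3 of the lower being listed at 0 at E7.5, and the reads shared by *miR-465a-3p* and *miR-465c-3p*, 2 of the higher entries, gave 421, 495 and 473 normalized CPM at E6.5 and 1141, 926 and 785 at E7.5 (log2 fold change 1.04 ± 0.16 (SE), adjusted p = 0.00567). Of 6 entries of the *miR-183*, *miR-96* and *miR-182* cluster, 0 were higher and 1 lower, and of 11 of the *miR-15* and *miR-16* family 0 and 2.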
